A study of Mus musculus with 6 samples.

Results

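The 9 genes described here are inhibitors of cyclin-dependent kinases, the RB proteins those kinases act on, and lamin B1, measured in cultured brain group 2 innate lymphoid cells (ILC2) of young and old mice. They were chosen by symbol from the deposited count table, and all 9 were found among its 24421 rows: Cdkn2a, Cdkn2b, Cdkn2c, Cdkn2d, Cdkn1b, Rb1, Rbl1, Rbl2 and Lmnb1. ILC2 are lymphocytes that reside in tissues, lack antigen receptors and make type 2 cytokines. The cells were sorted by surface markers from brain tissue of mice of the inbred strain C57BL/6, aged 2 to 3 months (young) or 20 to 22 months (old), with 3 libraries in each group. Both groups had spent 2 weeks in medium with 20% FCS, IL7, IL2, IL33 and SCF, so the comparison is between cultured cells and not between cells fresh from the brain. Total RNA was read by single-end sequencing of 75 bp. Whether the libraries stand for separate animals or cultures, or for pooled animals, is not in the labels, and the p-values therefore measure only the spread between these samples, which may be technical.

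Cyclin D with CDK4 or CDK6, and later cyclin E with CDK2, phosphorylate the RB proteins, which otherwise hold E2F transcription factors in check and keep S-phase genes off. INK4 proteins (p16, p15, p18 and p19) bind CDK4 and CDK6, whereas CIP/KIP proteins (p21, p27 and p57) bind cyclin-CDK complexes, above all those of CDK2. Transcripts of Cdkn2a accumulate in many aged tissues and in senescent cells, and loss of Lmnb1, a protein of the nuclear lamina, is used as a marker of senescence.

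RefSeq promoter sequences (build GRCm38.p6) were matched by symbol for 7 of the 9 genes, all but Rb1 and Lmnb1. Of these sequences 5 are shown: the pair of start sites of Cdkn2a, which feed a single count, that of Cdkn2d, the gene that rose, and those of Rbl1 and Rbl2, relatives with different values. No level or change given below rests on these sequences, and their part in the changes was not tested. Each holds the 250 bases before the annotated start, 5′ to 3′ on the gene's strand, with capitals marking matches to the E2F letters TTTCCCGC, TTTGGCGC, TTTCGCGC or TTTGCCGC on either strand.
Cdkn2a, upstream start (transcript of p19ARF), chr4:89294620-89294869, minus strand: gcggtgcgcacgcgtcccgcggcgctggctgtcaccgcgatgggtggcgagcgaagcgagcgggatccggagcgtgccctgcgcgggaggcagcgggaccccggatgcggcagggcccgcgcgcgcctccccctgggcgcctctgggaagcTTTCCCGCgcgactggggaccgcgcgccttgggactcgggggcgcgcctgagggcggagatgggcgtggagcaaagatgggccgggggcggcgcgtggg
Cdkn2a, downstream start (transcript of p16INK4a), chr4:89282193-89282442, minus strand: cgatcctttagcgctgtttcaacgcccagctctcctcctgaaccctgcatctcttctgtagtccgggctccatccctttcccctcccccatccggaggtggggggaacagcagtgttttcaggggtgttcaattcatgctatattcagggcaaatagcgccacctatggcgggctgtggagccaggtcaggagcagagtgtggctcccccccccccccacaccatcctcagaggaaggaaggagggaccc
Cdkn2d, chr9:21291210-21291459, minus strand: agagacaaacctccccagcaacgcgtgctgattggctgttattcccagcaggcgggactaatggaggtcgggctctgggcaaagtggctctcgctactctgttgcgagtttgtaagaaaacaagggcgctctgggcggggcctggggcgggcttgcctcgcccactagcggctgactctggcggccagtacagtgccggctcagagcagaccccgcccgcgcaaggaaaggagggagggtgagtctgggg
Rbl1, chr2:157204535-157204784, minus strand: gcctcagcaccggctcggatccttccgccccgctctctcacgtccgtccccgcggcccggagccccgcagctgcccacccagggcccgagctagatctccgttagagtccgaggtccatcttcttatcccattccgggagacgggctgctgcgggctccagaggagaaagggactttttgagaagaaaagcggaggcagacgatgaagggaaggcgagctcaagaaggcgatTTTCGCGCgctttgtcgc
Rbl2, chr8:91069807-91070056, plus strand: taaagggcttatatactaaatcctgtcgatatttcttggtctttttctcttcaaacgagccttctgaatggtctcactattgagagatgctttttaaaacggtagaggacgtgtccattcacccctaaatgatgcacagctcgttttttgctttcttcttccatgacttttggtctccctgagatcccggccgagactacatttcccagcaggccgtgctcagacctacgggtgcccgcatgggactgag
A match was found in the upstream promoter of Cdkn2a, with its first base 99 bases before the start, and in that of Rbl1, 18 bases before the start. None lay in the other promoters shown, nor in those of Cdkn2b, Cdkn2c and Cdkn1b, which were searched but are not shown. Of 32851 promoter windows of this length in the RefSeq table, 1.86% held a match. These are matches of letters in a window, and binding was not measured.

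In old cultures the INK4 family shifted toward Cdkn2d (p19INK4d): Cdkn2d rose 3.64-fold, Cdkn2c (p18) fell, and Cdkn2a (p16 and p19ARF) and Cdkn2b (p15) had lower values that did not pass the test. Rbl2 (p130) fell, while Rb1, Rbl1 (p107), Cdkn1b (p27) and Lmnb1 did not pass. Of the 9 genes, all of which met the filter on low counts, 1 rose and 2 fell (edgeR quasi-likelihood test, adjusted p under 0.05 by Benjamini-Hochberg over the 11805 genes tested). Over all genes tested 11.2% rose, 8.14% fell and 19.4% were called in either direction, so the number of calls, 3 of 9, is close to the background and says nothing particular about these genes. On the TMM scale the 3 old libraries did not overlap the 3 young ones in 8 of the 9 genes, 6 below and 2 above, where 38.2% of all tested genes had groups without overlap (18.8% with old below, 19.3% with old above). The median log2 change of the 9 genes was -0.61, against -0.10 over all genes tested.

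**Figure D1:**
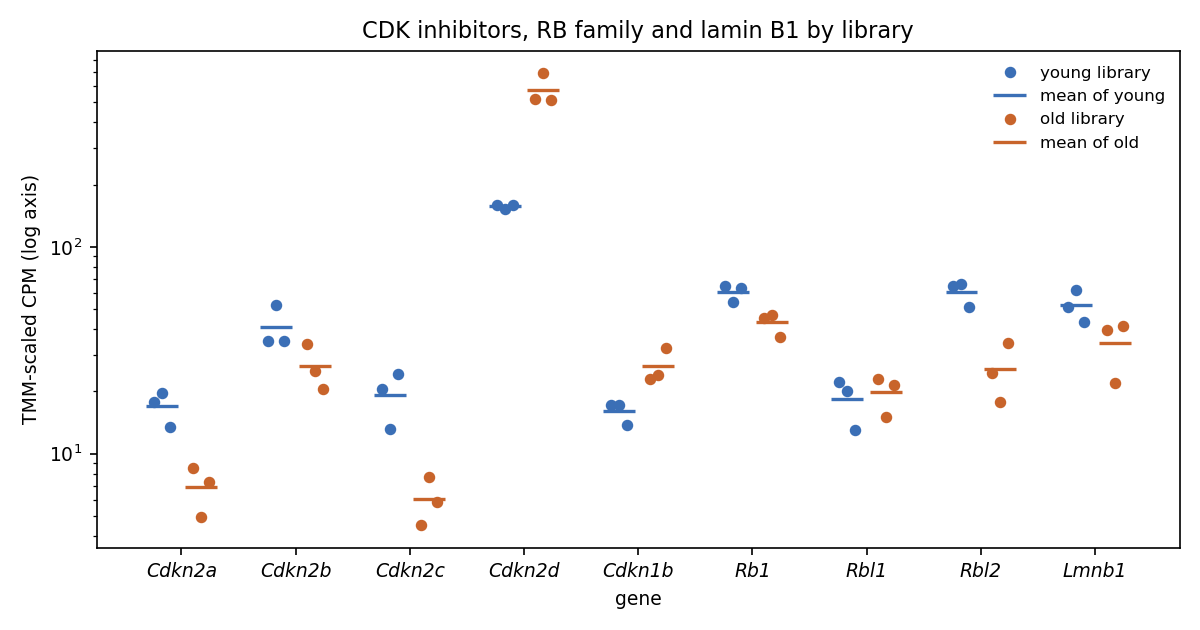
TMM-scaled CPM, on a log axis, of the 9 genes in each library (points) with group means (bars). The old libraries lie above all young ones for Cdkn2d and Cdkn1b, overlap them for Rbl1, and lie below them for the other 6 genes.

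Library totals ran from 16477157 to 20804291 counts, and TMM, which scales libraries by the trimmed mean of their gene ratios, gave factors of 1.12 to 1.18 in young and 0.84 to 0.88 in old libraries. ILC2 markers were present in all libraries, with 10 of 10 detected and a summed level of 11000 to 12100 CPM of library totals in young and 5490 to 7530 in old libraries, of which Il5 was the largest part. Markers of microglia and macrophages summed to 7.54 to 14.2 CPM in young and 43.8 to 71.6 CPM in old libraries, with 5 of 8 detected, Tmem119 the largest and Csf1r, C1qa and C1qc at 0. B cell markers summed to 16.0 to 25.7 and 27.9 to 51.6 CPM, all of it Cd79b, with Cd79a, Ms4a1 and Pax5 at 0. Those of neurons, astrocytes and oligodendrocytes summed to 23.8 to 43.2 CPM in young and 15.1 to 15.7 CPM in old libraries, with 4 of 6 detected, Mbp the largest and Rbfox3 and Aqp4 at 0. Markers of NK cells and ILC1 were at 0 throughout (0 of 4 detected), and summed T cell, mast cell and endothelial or fibroblast markers overlapped between the groups. The part of these lists in the results below was not tested. In bulk RNA, fewer cells of a type and less RNA per cell cannot be told apart.

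Cdkn2d encodes p19INK4d, an inhibitor of CDK4 and CDK6 whose level is known to vary through the cell cycle. It lies on chromosome 9 (21288410 to 21291407, GRCm38), and its promoter shown above has no E2F letters. Its level in CPM (counts relative to the TMM-scaled library size, as for all levels below) was 159.5, 153 and 160.0 CPM in young libraries 1 to 3 and 519, 691 and 511 CPM in old libraries 1 to 3. The young libraries were nearly level, with a coefficient of variation of 2.52%, and every old library stood far above them. The log2 change was 1.87 ± 0.16 (SE; edgeR adjusted p = 1.946e-05), from a mean of 157 ± 3.97 to 574 ± 102 CPM (SD, n = 3 each). It ranked number 66 by p among the 11805 genes tested. The call held under all 16 alternative settings, with log2 changes of 1.41 to 1.94.

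Cdkn2c encodes p18INK4c, an inhibitor that restrains the division of lymphocytes and their progenitors, and lies on chromosome 4 (109660876 to 109667189). Its level was 20.5, 13.2 and 24.3 CPM in young libraries 1 to 3 and 4.51, 7.68 and 5.85 CPM in old libraries 1 to 3. All old libraries were below all young ones, although the young values spread widely, with young library 2 the lowest of them. Cdkn2c fell 3.21-fold, with a log2 change of -1.68 ± 0.46 (SE; edgeR adjusted p = 0.02602). The call did not hold without young library 1 (adjusted p = 0.1043, edgeR), young library 3 (0.09896), old library 1 (0.06504) or old library 3 (0.05779), nor with the replicate number as a block (0.0623), and the log2 change stayed between -2.10 and -1.46 over all settings.

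Cdkn2a and Cdkn2b are neighbours on chromosome 4 (89274471 to 89294653 and 89306299 to 89311039). Cdkn2a makes p16INK4a from its downstream start and the unrelated protein p19ARF, which frees p53 from MDM2, from its upstream start. The transcripts share their later exons, and the deposited count does not separate them. Its level was 17.7, 19.8 and 13.4 CPM in young libraries 1 to 3 and 8.55, 4.92 and 7.31 CPM in old libraries 1 to 3. The groups did not overlap, with old below young. The log2 change of -1.29 ± 0.45 (SE; 95% interval -2.29 to -0.29, unadjusted) did not pass after adjustment (adjusted p = 0.07111, edgeR). It passed when libraries were scaled by their totals alone (-1.71, adjusted p = 0.01965), with offsets for transcript length and GC content (-2.04, 0.0123) and in DESeq2 (-1.26, 0.0499). No setting gave a log2 change above -1.098.

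Cdkn2b encodes p15INK4b, an inhibitor induced by TGF-beta in many cells. Its level was 34.9, 52.6 and 35.3 CPM in young and 34.0, 25.2 and 20.5 CPM in old libraries 1 to 3. The groups were separated only narrowly, since the highest old library (34.0 CPM) lay just under the lowest young one (34.9 CPM). The log2 change was -0.62 ± 0.30 (SE; 95% interval -1.29 to 0.04; adjusted p = 0.1857, edgeR), which did not pass. It passed when scaled by library totals alone (-1.05, adjusted p = 0.02904) and with the length and GC offsets (-1.08, 0.02412), while without young library 2 the log2 change was -0.39 (0.5454).

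The change in balance did not depend on how libraries were scaled, because each gene can be given as a share of the INK4 counts of its own library. Cdkn2d made up 68.6%, 64.1% and 68.7% of INK4 counts in young libraries 1 to 3 and 91.7%, 94.8% and 93.8% in old libraries 1 to 3, a difference of 26.3 percentage points. Cdkn2b took 17.4 ± 4.03% of them in young and 4.41 ± 1.39% in old libraries (SD, n = 3 each). The share of Cdkn2c was 8.25 ± 2.49% against 0.97 ± 0.16%, and that of Cdkn2a 7.23 ± 1.31% against 1.18 ± 0.44%. For each of the 4 shares the groups did not overlap (p = 0.1 in a two-sided exact permutation test, which with 3 against 3 libraries can give no smaller value and cannot reach 0.05). These shares are of counts and are not corrected for gene length, and they sum to 100% and so are not independent of each other. Summed, the 4 INK4 genes reached 235 ± 3.22 CPM in young and 613 ± 101 CPM in old libraries, whereas Cdkn2a, Cdkn2b and Cdkn2c alone summed to 77.2 ± 7.18 and 39.5 ± 6.85 CPM. With library totals as the scale the same sums were 271 ± 9.92 and 529 ± 71.9 CPM for the 4 genes, and 89.3 ± 10.2 and 34.2 ± 6.00 CPM for the 3.

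**Figure D2:**
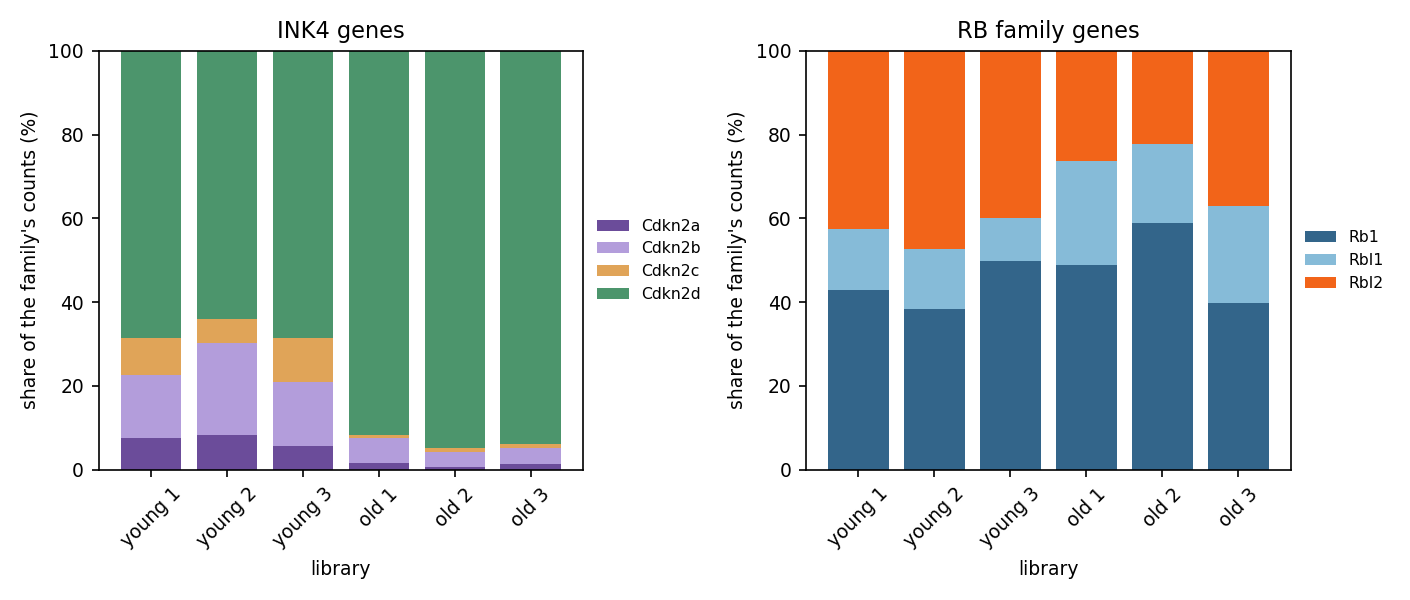
Share of each gene in the summed counts of the INK4 genes (left) and of the RB family (right) in each library, in percent. Cdkn2d holds 64.1% to 68.7% of INK4 counts in young and 91.7% to 94.8% in old libraries, and Rbl2 40.0% to 47.2% and 22.2% to 37.1% of RB family counts.

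Cdkn1b encodes p27KIP1, which binds and inhibits CDK2 complexes and is removed by the SKP2 ubiquitin ligase when cells enter S phase; it lies on chromosome 6 (134920401 to 134925513). Its level was 17.3, 17.2 and 13.7 CPM in young and 23.1, 24.0 and 32.6 CPM in old libraries 1 to 3. All old libraries were above all young ones on the TMM scale, whereas the groups overlapped with library totals as the scale. The log2 change of 0.73 ± 0.33 (SE; 95% interval 0.00 to 1.45, unadjusted) did not pass (adjusted p = 0.1561, edgeR), but it did with the length and GC offsets (1.11, adjusted p = 0.03395), and it was 0.31 with library totals as the sole scaling. Of its relatives, Cdkn1c (p57KIP2), an imprinted gene, rose from 1.64 ± 1.63 to 17.3 ± 6.42 CPM (SD, n = 3 each; log2 change 3.40 ± 0.77, adjusted p = 0.01014, edgeR), with a gene on the opposite strand over 30.7% of its exon length. Cdkn1a (p21), a p53 target, had by far the most counts of the CIP/KIP genes at 1158 ± 103 and 1060 ± 173 CPM and did not pass (log2 change -0.13 ± 0.14).

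The RB family had lower values for Rbl2 and Rb1 and overlapping groups for Rbl1. Rbl2 encodes p130, the family member typical of resting cells, where it joins E2F4 and the MuvB proteins in the DREAM complex to silence cell cycle genes. It lies on chromosome 8 (91070057 to 91123844), and its level was 64.4, 66.2 and 51.0 CPM in young and 24.5, 17.7 and 34.4 CPM in old libraries 1 to 3. The groups did not overlap, and Rbl2 fell 2.37-fold, with a log2 change of -1.24 ± 0.29 (SE; edgeR adjusted p = 0.01169). The call was lost with the length and GC offsets (-0.64, adjusted p = 0.1303, edgeR) and without young library 1 (-1.18, 0.05885). Of its exon length 21.0% overlaps genes on the opposite strand, chiefly Aktip, which had 27.9 ± 4.05 CPM in young and 22.4 ± 13.4 CPM in old libraries.

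Rb1 encodes the retinoblastoma protein itself and lies on chromosome 14 (73183673 to 73325822). Its level was 64.8, 53.9 and 63.4 CPM in young and 45.5, 47.0 and 36.9 CPM in old libraries 1 to 3. Old libraries were below young ones without overlap, but by a margin that did not pass: the log2 change was -0.49 ± 0.22 (SE; 95% interval -0.98 to -0.01, unadjusted; adjusted p = 0.1495, edgeR). It was -0.91 when scaled by library totals alone (adjusted p = 0.0116) and -0.11 with the length and GC offsets (0.7997). Exons of Rcbtb2 and Lpar6 on the opposite strand cover 14.9% of its exon length, and Rcbtb2 fell by 1.12 on the log2 scale, while Lpar6 had 31.5 ± 5.30 and 10.8 ± 7.69 CPM and did not pass.

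Rbl1 encodes p107, which is made as cells enter the cycle and whose promoter, shown above, carries E2F letters next to the start; it lies on chromosome 2 (157145893 to 157204534). Its level was 22.2, 20.1 and 13.0 CPM in young and 23.0, 15.1 and 21.5 CPM in old libraries 1 to 3. The groups overlapped, and the log2 change of 0.11 ± 0.37 (SE; adjusted p = 0.8861, edgeR) had a 95% interval of -0.70 to 0.91, which leaves room for a change of either sign. Its sign turned with library totals as the sole scaling (-0.31) and without young library 3 (-0.06) or old library 1 (-0.01). As a share of the RB family's counts, Rbl1 was 14.7%, 14.4% and 10.2% in young and 24.7%, 18.9% and 23.2% in old libraries 1 to 3, and Rbl2 was 42.5%, 47.2% and 40.0% against 26.4%, 22.2% and 37.1%. For both genes the groups did not overlap (p = 0.1 in the same exact permutation test), whereas the share of Rb1 overlapped at 43.7 ± 5.72% and 49.2 ± 9.57% (exact permutation p = 0.5). The 3 genes summed to 139.7 ± 12.1 CPM in young and 88.5 ± 7.57 CPM in old libraries.

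Lmnb1 encodes lamin B1 and lies on chromosome 18 (56707813 to 56753424). Its level was 51.3, 61.8 and 43.3 CPM in young and 39.4, 22.0 and 41.3 CPM in old libraries 1 to 3. The highest old library (41.3 CPM) was close to the lowest young one (43.3 CPM), and old library 2 stood below the others. The log2 change was -0.61 ± 0.29 (SE; 95% interval -1.25 to 0.04; adjusted p = 0.183, edgeR) and did not pass, except when scaled by library totals alone (-1.02, adjusted p = 0.03153), and without old library 2 it was -0.37. Of 11 tested genes of the nuclear lamina, Lmnb1 among them, 1 passed and rose, with a median log2 change of 0.03. Over all genes tested 11.2% rose and 8.14% fell, with a median of -0.10, so this count is close to the background. The gene that rose was Banf1, which links DNA to the lamina, from 375 ± 17.6 to 897 ± 91.6 CPM (SD, n = 3 each), with 28.6% of its exons under a gene on the opposite strand, while Emd (emerin) and Lmna (lamin A/C) had log2 changes of 0.61 and 0.52 and did not pass. Lmna passed with the length and GC offsets (0.92, adjusted p = 0.004398, edgeR).

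**Figure D3:**
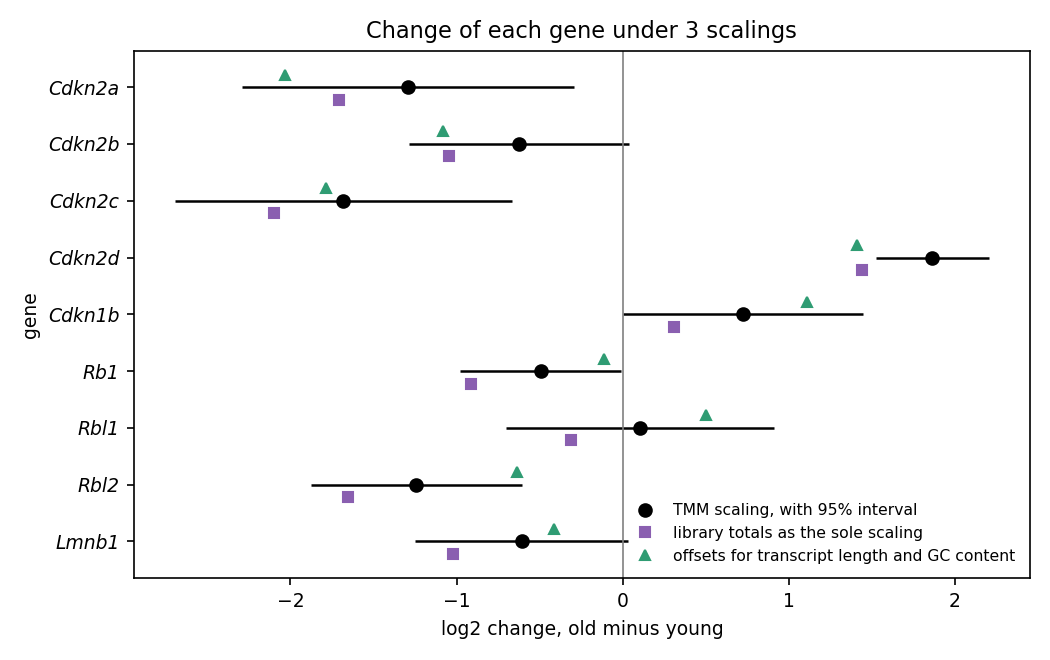
Log2 change (old minus young) of each gene with TMM scaling and its 95% interval (black), with library totals as the sole scaling (squares) and with offsets for transcript length and GC content (triangles). Cdkn2d is at 1.41 or above and Cdkn2c at -1.68 or below in all 3, while Rbl1 lies on both sides of 0.

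The scale on which a change is read matters for the middle of this group. With TMM the median log2 change of all tested genes was -0.10, and with library totals -0.52, and the share of called genes that were higher went from 58.0% to 23.2%, so changes here are relative to TMM. With library totals 6 of the 9 genes were lower and 1 higher, where the whole table gave 718 genes higher and 2380 lower. Across 11705 tested genes with a transcript length, which are not independent replicates, the log2 change had a Spearman correlation of -0.35 with the length of the longest transcript and 0.08 with its GC content. The longest transcripts of Rb1, Rbl1 and Rbl2 are 4656, 4862 and 4925 bases and those of Cdkn2a and Cdkn2d 895 and 1423 bases. With offsets for transcript length and GC content, 3 genes were lower (Cdkn2a, Cdkn2b and Cdkn2c) and 2 higher (Cdkn2d and Cdkn1b). None of the RB family was called there, where the whole table of 11705 genes gave 1334 higher and 659 lower.

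Levels can be compared between genes only per length, here as CPM per kilobase of exon. In young libraries Cdkn2d was highest at 97.1 to 101.6, followed by Cdkn2b at 29.4 ± 7.26, Lmnb1 at 17.6 ± 3.14, Cdkn2a at 14.5 ± 2.76, Rb1 at 10.1 ± 0.99, Rbl2 at 8.01 ± 1.103, Cdkn2c at 7.18 ± 2.10, Cdkn1b at 3.53 ± 0.44 and Rbl1 at 3.08 ± 0.81 (CPM per kilobase, SD, n = 3). Neighbours in that order whose libraries overlapped were Lmnb1 and Cdkn2a, Rbl2 and Cdkn2c, and Cdkn1b and Rbl1. In old libraries Cdkn2d stood at 365 ± 64.6 CPM per kilobase, Cdkn2b at 19.1 ± 4.92 and Lmnb1 at 11.6 ± 3.60, in the same order as before. Below them Rb1 (7.17 ± 0.91), Cdkn2a (5.91 ± 1.58), Cdkn1b (5.83 ± 1.16), Rbl2 (3.38 ± 1.11), Rbl1 (3.31 ± 0.70) and Cdkn2c (2.24 ± 0.59 CPM per kilobase) followed, and from Lmnb1 down each overlapped the next except Cdkn1b and Rbl2. Cdkn1b thus went from the eighth place to the sixth and Cdkn2c from the seventh to the ninth, with the order among overlapping neighbours not settled. The places also depend on the length used. Per kilobase of the longest transcript, Rbl1 (3.80) stood above Cdkn1b (3.53) and Cdkn2a (18.97) above Lmnb1 (18.34) in young libraries.

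Among the kinases and cyclins that the INK4 proteins act on, the counts of calls are read beside those over all genes tested (11.2% higher, 8.14% lower). Of 5 tested genes for CDK4, CDK6 and the D cyclins, 1 rose and 1 fell, with a median log2 change of 0.02. Cdk4 rose from 422 ± 35.2 to 719 ± 34.2 CPM (SD, n = 3 each; adjusted p = 0.001583, edgeR), with 19.7% of its exons under Tspan31 on the opposite strand. Ccnd2, the cyclin D2 gene, fell from 1153 ± 107 to 689.5 ± 88.8 CPM (adjusted p = 0.003143), a call lost with the length and GC offsets (log2 change -0.01, adjusted p = 0.9878, edgeR). Ccnd3 and Cdk6 had log2 changes of 0.39 and 0.02 and did not pass. With the length and GC offsets both were higher (0.66, adjusted p = 0.003995, and 0.79, 0.005636, edgeR). There 3 of the 5 were higher and 0 lower, beside 1334 higher and 659 lower of 11705 genes. With library totals as the sole scaling Cdk4 stayed higher (0.35, adjusted p = 0.04735) and Ccnd2 lower (-1.16, 0.0004116, edgeR). Ccnd3 (-0.03) and Cdk6 (-0.40) did not pass there, where 718 of all genes were higher and 2380 lower. Of 7 genes for CDK2, CDK1 and cyclins E, A and B, 1 passed and rose: Cdk1, the kinase of mitosis, went from 147 ± 5.93 to 313 ± 11.3 CPM (adjusted p = 0.0003507, edgeR). The log2 changes of Ccne1 (-0.68), Ccnb2 (0.48) and Ccna2 (0.37) did not pass. With the length and GC offsets 2 of the 7 were higher, Cdk1 and Ccna2 (0.66, adjusted p = 0.03272, edgeR), and 0 lower. With library totals as the sole scaling Cdk1 stayed higher (0.67, adjusted p = 0.005421, edgeR) and Ccne1 was lower (-1.09, 0.01198).

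The lists of genes under and around the RB proteins are small, and their counts stand beside 11.2% higher and 8.14% lower over all genes tested. Of 10 tested E2F and DP genes 1 passed and fell, with a median log2 change of -0.03. That gene was E2f8, an atypical E2F that represses E2F targets, at 16.1 ± 0.39 CPM in young and 2.82 ± 0.79 CPM in old libraries (SD, n = 3 each; adjusted p = 0.006474, edgeR), with 11.2% of its exons under another gene. Tfdp2, a DP gene, had a log2 change of -1.03 and E2f1, an activator, one of 0.68, and neither passed (adjusted p = 0.07173 and 0.141, edgeR). With library totals as the sole scaling Tfdp2 (-1.45, adjusted p = 0.01374, edgeR) and Tfdp1 (-0.83, 0.02207) were lower, whereas with the length and GC offsets neither passed. Of 6 genes of the MuvB core and Mybl2, 0 passed in edgeR, 0 had an unadjusted p under 0.05, and DESeq2 and limma-voom called 0 (median -0.17, with Mybl2 at -0.70 and Rbbp4 at -0.20). With library totals as the sole scaling Rbbp4 was lower (-0.62, adjusted p = 0.01093, edgeR). Among 20 classical E2F target genes 1 rose and 3 fell, with a median of -0.05: Tk1, which salvages thymidine, rose by 0.83 on the log2 scale, while the replicative helicase genes Mcm3 and Mcm6 fell by 0.94 and 0.58 and the ribonucleotide reductase gene Rrm1 fell by 0.83. The calls of Mcm3, Mcm6 and Rrm1 were lost with the length and GC offsets (adjusted p = 0.1617, 0.929 and 0.3162, edgeR). Under these offsets 3 genes of this list were higher, Tk1 among them, and 0 lower, beside 1334 higher and 659 lower of 11705 genes. With library totals as the sole scaling Mcm3, Mcm6 and Rrm1 stayed lower, and Mcm2, Mcm4 and Uhrf1 were also lower. Tk1 did not pass there (0.42, adjusted p = 0.1026, edgeR), and the whole table gave 718 genes higher and 2380 lower. Of 8 chromatin partners of RB, 4 passed and fell (median -0.61): Smarca4, the ATPase of a remodelling complex, fell by 1.92, Dnmt1, the maintenance DNA methyltransferase, fell by 1.24, Arid4a fell by 1.23 and Rbbp7 fell by 0.48 on the log2 scale. With the length and GC offsets 2 of these calls remained, Smarca4 and Rbbp7. Set against the 8.14% of all tested genes that fell, 8 genes are few, and the list was not tested.

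The lists of regulators of the inhibitors are read beside the 19.4% of all tested genes that were called. Of 8 genes for turnover or transcription of p27, 1 rose and 2 fell. Cks1b, a cofactor of SKP2 in p27 degradation, rose by 1.34 ± 0.14, Foxo1, an activator of Cdkn1b, fell by 1.59 ± 0.38 (SE), and Cops5, which carries p27 out of the nucleus, fell by 0.74 on the log2 scale. The calls of Foxo1 and Cops5 were lost with the length and GC offsets (adjusted p = 0.1909 and 0.05447, edgeR). Of 14 Polycomb genes and other regulators of the Cdkn2a and Cdkn2b locus, 2 passed and rose, with a median log2 change of 0.04. Id1, which blocks ETS and E-protein activation of Cdkn2a, rose from 15.2 ± 2.24 to 157 ± 9.67 CPM (SD, n = 3 each; adjusted p = 2.44e-06, edgeR), and Id2 rose by 0.80 on the log2 scale. Kdm6b, a demethylase that removes the Polycomb mark, stood at a log2 change of 1.28, which did not pass (adjusted p = 0.05382, edgeR), but did with the length and GC offsets (1.78, 0.02074), and DESeq2 called 4 genes of this list and limma-voom 3. Ets2 went the other way, at 2.56 ± 1.31 CPM in young and 0.06 ± 0.11 CPM in old libraries. Its log2 change of -5.167 did not pass (adjusted p = 0.05532, edgeR), but did with libraries scaled by their totals (-5.535, 0.03441). Of 5 genes of the ARF-MDM2-p53 axis 0 passed in edgeR, 1 had an unadjusted p under 0.05, and DESeq2 and limma-voom called 0, with log2 changes from -0.61 for Mdm4 to 0.07 for Mdm2. With the length and GC offsets Npm1 was lower (-0.53, adjusted p = 0.008497, edgeR), and with libraries scaled by their totals Mdm4 (-1.02, 0.01696), Cdkn1a (-0.55, 0.01404) and Npm1 (-0.62, 0.02316) were lower.

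**Figure D4:**
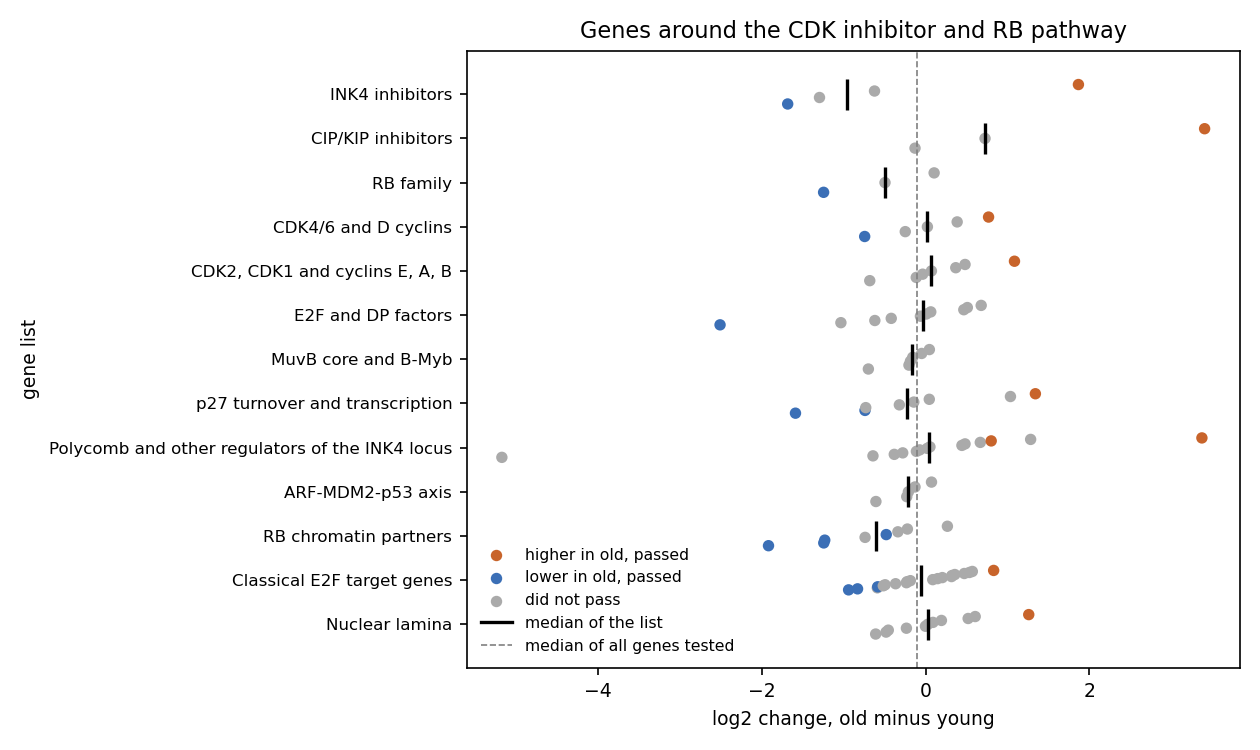
Log2 change (old minus young) of every tested gene in 13 lists around the pathway, with genes that passed in colour, list medians as black bars and the median of all genes tested (-0.10) as a dashed line. The list medians run from -0.96 for the INK4 inhibitors to 0.73 for the CIP/KIP inhibitors.

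Over the 6 libraries, the log2 levels most like those of Cdkn2d belonged to Tor1a, an endoplasmic reticulum ATPase gene (Pearson r = 0.9997), Wfdc17 (0.9997) and BC028528 (0.9992), each given as a description. Tor1a rose from 83.8 ± 1.12 to 148 ± 10.2 CPM, and the others had 0 counts in all young libraries and 4.68 ± 2.55 and 6.15 ± 2.79 CPM in old ones (SD, n = 3 each). With groups this far apart the likeness rests largely on the difference between them.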

How the data were processed

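Gene expression was measured in 6 libraries, grouped by the age word in their titles. The table the authors deposited holds raw counts per gene symbol, not normalized. Tools listed in the submitters' processing notes, with no role, are STAR 2.5.3a, Cufflinks 2.0, DESeq2 1.1, bcl2fastq 2.20.0.422 and FastQC 1.0.0, with the build mm10. The counter, annotation and strand handling: not given in the sources used here, so reads of overlapping genes cannot be told apart. Of 24421 rows, 27 have symbols turned into dates; they stayed in the tests and are not named.

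The analysis used edgeR 4.0.16 in R 4.3.3: filterByExpr (minimum count 10, minimum total 15; 11805 genes, 48.3%), TMM scaling, glmQLFit and glmQLFTest, old against young, with Benjamini-Hochberg adjustment over all genes tested and a threshold of 0.05. Standard errors are the log2 change divided by the root of F, and 95% intervals are built from them and are not adjusted. The procedure was tested on simulated data. Shares within families were compared by exact permutation over 20 arrangements. Positions and lengths come from GENCODE vM21 (GRCm38, the assembly called mm10), where 98.4% of symbols had a transcript length, and promoters from RefSeq (GRCm38.p6). Alternatives were DESeq2 1.42.0, limma-voom (limma 3.58.1), other scalings and filters, a robust fit, a replicate block, length and GC offsets and leaving out each library. Between libraries of a group the counts differed beyond sampling noise (chi-square per degree of freedom 35.7 to 89.2), so each was used as 1 sample.

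The 9 genes and the lists were chosen with earlier results of these data known. Named are all 9 genes, in each other list up to 4 genes with the smallest p (2 if none passed), and the 3 genes most correlated with the member of smallest p, leaving out predicted genes. Not every gene within this rule was named, and Cdk6 and Mdm2 were named outside it. Genes that overlap a member were added.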

Additional observations from a re-analysis of the deposited data

How the results depend on the processing

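Over 16 alternatives, 126 of the 144 log2 changes of the 9 genes kept their direction and side of the threshold, 8 passed newly, 7 no longer passed and 3, all of Rbl1, changed sign: -0.31 with library totals, -0.061 without young library 3 and -0.014 without old library 1, within -0.061 to 0.283 when a library was left out. With library totals as the sole scaling 718 genes were higher and 2380 lower, and 6 of the 9 genes were lower. With offsets for transcript length and GC content 3 of the 9 were lower and 2 higher, beside 1334 genes higher and 659 lower of 11705. Leaving out a library gave 1314 (without young library 1) to 2141 genes in all, 1515 without young library 2, with 915 to 1344 higher and 399 to 849 lower. Of the 9 genes 0 to 2 were then lower: 0 without young library 1, and 1 each without young library 3, old library 1 or old library 3. Same-numbered libraries deviated together only weakly (correlations of 0.020, 0.009 and 0.041). Each library correlated best with its own number except young library 2 (0.012 with old library 1, 0.009 with old library 2). The labels do not say that the numbers mark pairs, and the main fit did not take them as pairs. With the number as a replicate block 2008 genes were called and 1 of the 9 was lower. CPM per kilobase of the longest transcript, in place of all exons, was 19.0 and 7.74 for Cdkn2a in young and old, 110.6 for Cdkn2d in young, 13.0 and 9.26 for Rb1, 4.09 for Rbl1 in old, and 12.3 and 5.19 for Rbl2. For the shares within the INK4 and RB families the alternatives were counts per kilobase of exon and leaving out each library. All shares kept their direction. Where the groups did not overlap, as for every share but that of Rb1, leaving out a library cannot turn the direction and so tests nothing. The difference in the share of Rb1 was 5.5 percentage points, and 0.649 without old library 2. Counts of 68 to 129 in the old libraries of Cdkn2a and Cdkn2c limit their precision.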
